A study of Mus musculus with 6 samples.

Results

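The 45 genes described here, in mouse intestine, belong to glycolysis and to the cell's response to low oxygen. They were taken by symbol from a table of 25416 rows, and their 45 symbols matched 46 rows. The rule names genes by function and uses no measured value, but the list was drawn up with earlier results of these data known. They comprise glucose and lactate carriers, 17 glycolytic enzymes, regulators of glycolytic flux, the machinery of hypoxia-inducible factor (HIF), and other targets of HIF. RNA had been sequenced from intestine of 2 genotypes, 3 libraries each. The genotype labelled HET carried the S254D substitution in Rnf111, a gene that encodes the ubiquitin ligase Arkadia, and HET is read here as the heterozygous state. The other was labelled WT, and no treatment is named for either. The labels give no batch, nor the segment of intestine, the sex or age of the animals, nor whether each library came from a separate animal, so the p-values rest on library-to-library spread, which could be technical in part.

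Glycolysis splits glucose into pyruvate and yields ATP and NADH. Its entry steps are set by hexokinase and phosphofructokinase, and lactate dehydrogenase regenerates NAD by turning pyruvate into lactate. When oxygen is plentiful, prolyl hydroxylases mark the HIF alpha subunits for degradation. When oxygen falls, an alpha subunit pairs with Arnt, binds hypoxia response elements whose core is RCGTG (R being A or G), and raises transcription of many glycolytic genes. HIF is controlled largely at the protein level, which RNA levels do not show. The gut lining lies along a steep oxygen gradient toward the lumen and expresses HIF targets in the normal state.

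Values are FPKM, fragments scaled to transcript length and to library size, as deposited. They were compared with limma on log2(FPKM + 1), which understates the change of low genes, and a gene was called at a Benjamini-Hochberg adjusted p under 0.05 over 11870 rows with at least 1 FPKM in at least 3 libraries. Summed FPKM lay between 469968 and 510568 in HET libraries and between 493950 and 520095 in WT libraries, and a rough estimate of depth from the lowest values gave between 19700000 and 21900000 fragments per HET library and between 20600000 and 25800000 per WT library. Rows at 1 FPKM or more numbered 10989 to 11073 in HET and 11923 to 12067 in WT. Rnf111 was at 4.43, 4.83 and 4.25 FPKM in HET libraries, against 4.97, 5.29 and 5.34 in WT libraries. All 3 HET values lay below the WT values, but the log2 difference of -0.17 was not called (limma adjusted p = 0.0609), and S254D alters the protein, so its RNA level does not check the labels. Both genotypes expressed the enterocyte markers strongly, with a summed level of 31423 to 35231 FPKM in HET and 23730 to 26478 FPKM in WT. Markers of fibroblasts, smooth muscle, endothelium and immune cells were low in HET. Of those tested, 12 of 12 fibroblast, 13 of 13 smooth muscle, 15 of 16 endothelial and 12 of 13 immune markers fell. Of all tested rows, 35.7% were lower in HET. In whole tissue, fewer cells of a type and less RNA per cell cannot be told apart.

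Of the 43 members tested, 11 rose in HET and 6 fell. In shares, 25.6% of the members were higher, against 10.7% of all tested rows, and 14.0% were lower, against 35.7% of all tested rows. This background is not matched to the members for level. More rows reached 1 FPKM in WT than in HET libraries, and a row could pass the filter through a single genotype. Rows that passed through WT alone could add to the lower share but hardly to the higher, and they were not counted. Among rows with a mean FPKM of at least 5, 944 were higher and 1853 lower, in place of 1269 and 4235. With that filter 10 members were higher and 1 lower. These are counts among fewer tested rows, not shares, so they do not show whether the difference in shares holds at matched level. The median log2 fold change of the members was 0.10, while that of all tested rows was -0.12. Relative to this background median, the 11 higher members lay at 0.29 to 1.08 and the 6 lower members at -0.59 to -0.08. Of the 26 members that were not called, 20 also lay above it. The library values of all 17 called members were separate between the genotypes, but a call with 3 libraries per genotype itself favours such separation. Among all 43 tested members, called or not, 14 had every HET value above every WT value and 9 had every HET value below. Of all tested rows, 16.0% and 43.8% did so (59.8% on either side). The called members were spread over the pathway rather than held in 1 step: Slc16a3 among the carriers, Pfkl, Aldoc, Pgk1, Eno1, Pkm and Pklr among the enzymes, Egln1 among the hydroxylases, and Bnip3, Ndrg1 and Kdm3a among the other targets were higher, and Hk1, Ldhb, Pfkfb2, Pfkfb4, Arnt and P4ha1 were lower. Of these 17, 11 kept their call in every one of the 17 alternative analyses that held them. Leaving out HET replicates 1, 2 and 3 in turn left 11, 8 and 13 members higher (10.7%, 7.03% and 13.6% of all tested rows) and 5, 5 and 6 lower (37.1%, 29.9% and 33.5% of rows). Leaving out WT replicates 1, 2 and 3 in turn left 8, 9 and 8 higher (6.35%, 7.11% and 6.76% of rows) and 5 lower each time (28.8%, 28.2% and 26.5% of rows).

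**Figure D1:**
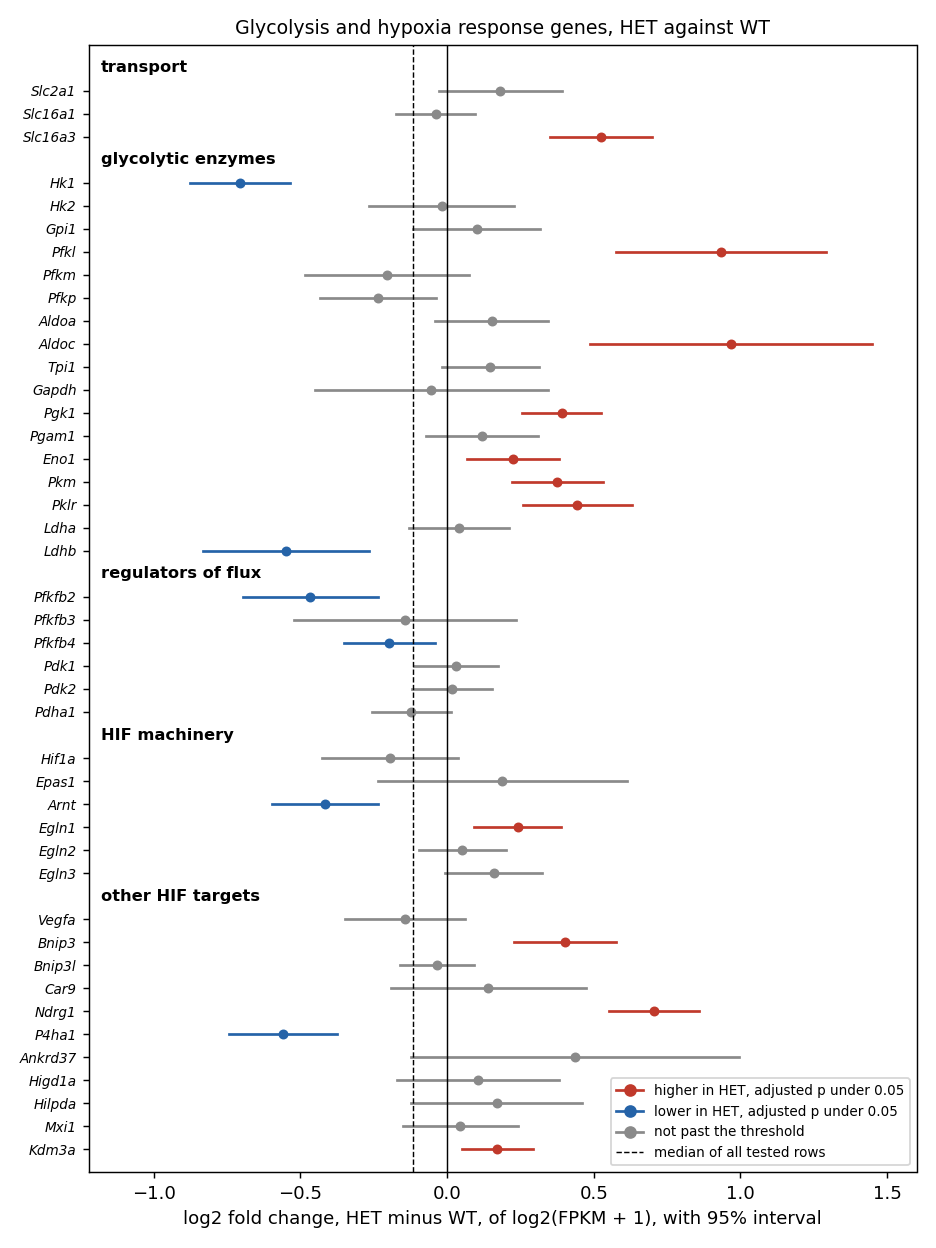
Log2 fold change of each tested member, HET over WT, on the log2(FPKM + 1) scale, with its 95% confidence interval. Members are grouped as carriers (transport), glycolytic enzymes, regulators of flux, HIF machinery and other HIF targets. The dashed line marks the median of all tested rows (-0.12). Pfkl and Aldoc lie farthest to the right, Hk1 and P4ha1 to the left, and most uncalled members sit to the right of the dashed line.

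Promoters can also be read for the HIF core element. The members were listed partly as known HIF targets, so a higher share of cores among them is not independent of that choice. Windows, not genes, were counted. RefSeq promoter windows on GRCm38.p6, from 250 bases before to 50 after a transcription start, were available for 42 members (66 windows). ACGTG or GCGTG occurred on either strand in 78.8% of these windows, against 43.8% of all 32851 windows. The ACGTG form was in 51.5% of member windows and 19.6% of all windows, and the GCGTG form in 56.1% and 32.4%. The E-box CACGTG, which itself holds ACGTG on both strands, was in 13.6% and 7.15%. Member windows were richer in G and C (61.1%, against 53.8% over all windows), which alone makes such letters more frequent, and its part in the difference was not tested. Cores were found in windows of members that moved either way or were not called: 12 of 17 windows of higher members held a core, as did 8 of 9 of lower members and 30 of 38 of members not called. The windows of 5 members follow, 5′ to 3′ on the gene's strand, to show how the core sits in genes that moved either way. Capitals mark ACGTG or GCGTG, or their reverse complements CACGT and CACGC, and a match of letters is not a bound site.
Slc16a3, chr11:120948817-120949116, plus strand: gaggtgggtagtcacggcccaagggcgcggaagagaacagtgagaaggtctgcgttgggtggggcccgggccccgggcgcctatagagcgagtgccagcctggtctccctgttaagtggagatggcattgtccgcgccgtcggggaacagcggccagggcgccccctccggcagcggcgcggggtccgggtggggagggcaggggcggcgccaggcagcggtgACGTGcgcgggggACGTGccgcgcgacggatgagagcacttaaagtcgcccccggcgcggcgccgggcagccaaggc
Pfkl, chr10:78009758-78010057, minus strand: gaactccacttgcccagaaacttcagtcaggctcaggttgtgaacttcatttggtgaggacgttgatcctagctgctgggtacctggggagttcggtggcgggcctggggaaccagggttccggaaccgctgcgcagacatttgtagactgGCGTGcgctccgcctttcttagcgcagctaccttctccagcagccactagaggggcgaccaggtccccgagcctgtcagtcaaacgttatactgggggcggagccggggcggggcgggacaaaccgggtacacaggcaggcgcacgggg
Pgk1, chrX:106186850-106187149, plus strand: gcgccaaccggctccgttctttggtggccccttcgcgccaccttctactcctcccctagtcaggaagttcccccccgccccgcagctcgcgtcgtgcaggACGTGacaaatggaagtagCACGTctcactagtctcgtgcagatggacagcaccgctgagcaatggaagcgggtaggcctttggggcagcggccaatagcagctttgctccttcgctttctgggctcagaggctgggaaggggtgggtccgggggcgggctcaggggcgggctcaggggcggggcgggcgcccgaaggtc
Bnip3, chr7:138909457-138909756, minus strand: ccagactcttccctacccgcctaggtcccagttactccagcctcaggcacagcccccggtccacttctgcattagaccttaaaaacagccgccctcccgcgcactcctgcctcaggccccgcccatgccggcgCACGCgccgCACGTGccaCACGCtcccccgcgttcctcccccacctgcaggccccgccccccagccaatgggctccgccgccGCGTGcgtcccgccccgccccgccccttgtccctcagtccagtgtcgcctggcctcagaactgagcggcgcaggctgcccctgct
P4ha1, chr10:59323046-59323345, plus strand: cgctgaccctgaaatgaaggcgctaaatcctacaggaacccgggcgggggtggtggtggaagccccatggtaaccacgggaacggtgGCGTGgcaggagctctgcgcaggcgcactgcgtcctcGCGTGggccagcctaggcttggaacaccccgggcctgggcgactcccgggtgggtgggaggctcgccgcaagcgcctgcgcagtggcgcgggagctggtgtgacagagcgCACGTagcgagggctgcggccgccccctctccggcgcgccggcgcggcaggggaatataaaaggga
The Bnip3 window held 5 matches, of which one ACGTG on each strand overlap in a CACGTG. P4ha1, which fell in HET, had 3 matches, while Pfkl, with one of the 2 largest log2 increases among members, had 1. Slc16a3 and Pgk1 each held 2 of the ACGTG form.

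Among the carriers, the lactate exporter rose and the main lactate and ketone carrier did not pass the test. Slc16a3 (Mct4), a monocarboxylate carrier of glycolytic cells, was at 17.5, 17.0 and 14.7 FPKM in HET libraries, against 10.96, 11.4 and 10.9 in WT libraries. Every HET library exceeded every WT library by a wide margin, a 1.48-fold difference (log2 fold change 0.52, SE 0.07, limma adjusted p = 0.0016). Slc16a1 (Mct1), which moves lactate and short-chain fatty acids, was at 23.6, 24.6 and 22.4 FPKM in HET, against 23.6, 25.0 and 24.1 in WT. These overlap, with a log2 difference of -0.04 (adjusted p = 0.606). Slc16a3 therefore made up 42.6%, 40.8% and 39.6% of the summed level of the pair in HET, against 31.8%, 31.3% and 31.2% in WT. Slc2a1 (Glut1), the basal glucose carrier, was at 4.80, 3.78 and 3.81 FPKM in HET, against 3.69, 3.50 and 3.33 in WT. The groups did not overlap, yet HET replicate 1 stood above the rest and the log2 difference of 0.18 was not called as deposited (adjusted p = 0.135); it was called after median-ratio scaling (0.29, adjusted p = 0.0337) and after quantile normalization (0.40, adjusted p = 0.013).

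At the entry of the pathway, 1 hexokinase fell and 1 phosphofructokinase subunit rose, while their partner isozymes were not called. Hk1, the hexokinase of most tissues, held at the outer mitochondrial membrane, was at 1.92, 2.36 and 2.29 FPKM in HET libraries, against 4.05, 4.31 and 4.21 in WT libraries. It was 1.91-fold lower in HET, with a wide gap between the groups (log2 fold change -0.70, SE 0.07, adjusted p = 0.000498). Hk2, the inducible isozyme of muscle and tumours, was at 3.46, 3.37 and 4.52 FPKM in HET, against 3.71, 3.57 and 4.20 in WT, which overlap fully (adjusted p = 0.894). Hk1 thus formed 35.7%, 41.2% and 33.6% of Hk1 plus Hk2 in HET, against 52.2%, 54.7% and 50.1% in WT. Hkdc1, a hexokinase-related gene outside the 45, was far above both, at 68.2 ± 3.04 FPKM in HET and 75.1 ± 2.43 FPKM in WT (SD, n = 3 each), and was not called (limma adjusted p = 0.0968).

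Pfkl, the liver-type subunit of phosphofructokinase, was at 23.0, 18.4 and 14.5 FPKM in HET, against 8.51, 9.92 and 9.02 in WT. The 3 HET libraries ranged widely yet all lay above WT, a 2.04-fold difference (log2 fold change 0.93, 95% interval 0.58 to 1.29, limma adjusted p = 0.00291). Pfkp, the platelet-type subunit and the most abundant here, was at 62.0, 67.9 and 75.8 FPKM in HET, against 78.5, 78.9 and 84.7 in WT. All HET values lay below WT, but the log2 difference of -0.24 just missed the threshold (adjusted p = 0.0535) and passed it without HET replicate 3 (0.0135). Pfkm, the muscle-type subunit, was at 2.68, 2.09 and 3.07 FPKM in HET and 3.25, 2.73 and 3.48 FPKM in WT, which overlap (adjusted p = 0.192). The sum of the 3 subunits was 87.7, 88.5 and 93.4 FPKM in HET, against 90.2, 91.6 and 97.2 in WT, so the summed levels overlapped while their makeup differed. Pfkl supplied 26.3%, 20.9% and 15.6% of that sum in HET, against 9.43%, 10.8% and 9.28% in WT. The order of Pfkl among the HET libraries, highest in replicate 1 and lowest in replicate 3, was the reverse of that of Pfkp.

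**Figure D2:**
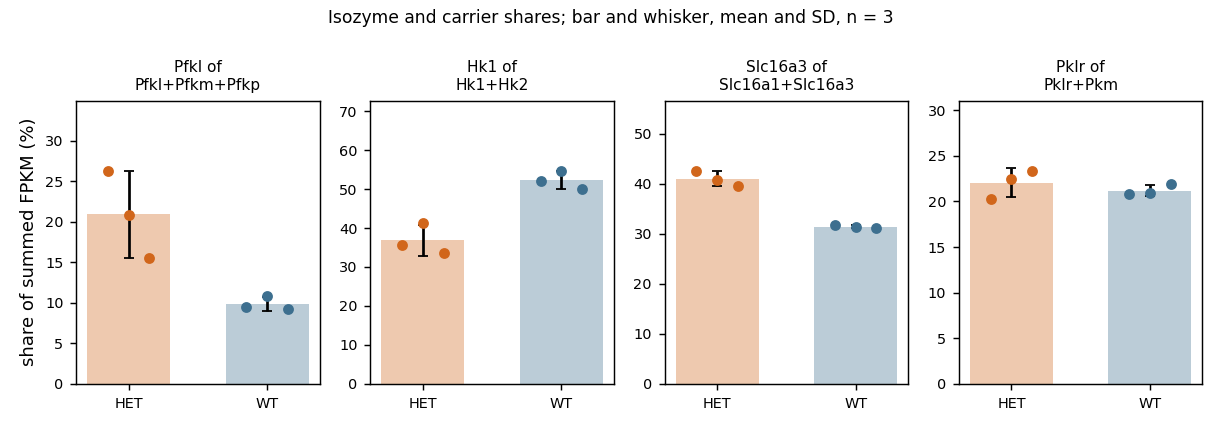
Share of 1 isozyme or carrier in the summed FPKM of its family, in percent, for each library (points), with bars for the mean and whiskers for the SD (n = 3), HET left of WT. Pfkl and Slc16a3 take a larger share in every HET library, Hk1 a smaller one, and the Pklr share overlaps between genotypes.

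From fructose bisphosphate to pyruvate, calls went one way: 5 of 9 tested members rose and 0 fell, and their median log2 fold change was 0.22. Of all tested rows, 10.7% were higher and 35.7% lower, with a median of -0.12. Pgk1, phosphoglycerate kinase, which makes the first ATP of the pathway, was at 298, 297 and 295 FPKM in HET, against 230, 229 and 220 in WT. The HET libraries lay within a few FPKM of each other and well above all WT libraries, 1.31-fold (log2 fold change 0.39, SE 0.06, limma adjusted p = 0.00192). Pkm, the pyruvate kinase of most tissues, was at 535, 521 and 536 FPKM in HET, against 408, 425 and 393 in WT. It was 1.30-fold higher (adjusted p = 0.00387). Pklr, the liver-type pyruvate kinase that villus cells also express, was at 136, 151 and 163 FPKM in HET, against 107, 112 and 110 in WT, 1.37-fold higher (adjusted p = 0.00396). Since both rose to a like extent, Pklr formed 20.3%, 22.5% and 23.3% of the pair in HET and 20.8%, 20.9% and 21.9% in WT, which overlap. Their sum was 671, 672 and 699 FPKM in HET, against 515, 537 and 503 in WT.

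Eno1, the ubiquitous enolase, was at 434, 418 and 405 FPKM in HET, against 354, 374 and 348 in WT. All HET values were the higher, by 1.17-fold on average (log2 fold change 0.22, SE 0.07, limma adjusted p = 0.0299), but the call was lost without HET replicate 2 (0.0911) and without each WT replicate in turn (0.106, 0.0535 and 0.112). Aldoc, the brain-type aldolase, was at 7.11, 5.35 and 3.88 FPKM in HET, against 2.01, 2.97 and 1.81 in WT. It had the largest fold difference of the members called, 2.41-fold, from a low level and with wide spread in both groups (log2 fold change 0.97, SE 0.20, adjusted p = 0.0082). Aldoa, the muscle-type aldolase expressed in most tissues, was far more abundant at 278 ± 26.8 FPKM in HET and 250 ± 2.77 FPKM in WT (SD, n = 3 each; adjusted p = 0.164). A second, low row of that symbol, at 0.205 to 0.489 FPKM, was not tested.

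Tpi1, triosephosphate isomerase, was at 519, 502 and 467 FPKM in HET, against 444, 458 and 441 in WT, separate but not called (limma adjusted p = 0.125). Gpi1, which converts glucose 6-phosphate ahead of phosphofructokinase, was at 177 ± 20.7 FPKM in HET and 164 ± 4.77 FPKM in WT (adjusted p = 0.395). Pgam1, phosphoglycerate mutase, was at 171 ± 14.0 FPKM in HET and 157 ± 8.33 FPKM in WT (adjusted p = 0.264; SD, n = 3 each). After median-ratio scaling Aldoa (0.0216), Tpi1 (0.0111) and Pgam1 (0.0246) passed the threshold as higher. Gapdh, the dehydrogenase often used as a reference gene, was not called under any of the 4 scalings. It was at 37.9, 38.2 and 54.9 FPKM in HET, against 43.7, 38.7 and 52.8 in WT, with one library of each genotype well above its partners (adjusted p = 0.814). Its reads can be divided among near-identical copies, of which the reference annotation holds 42 at 95% identity or more over at least 300 aligned bases, and its level was low for its step, so its value is uncertain. Another 14 members share such a stretch with another gene or an overlapping neighbour, among them Bnip3 with 5 copies, Pgk1 and Eno1 with 3 each and Pkm with 1, and their values are uncertain to the degree that the counting, which the sources do not describe, split those reads.

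At the exit of the pathway, the minor lactate dehydrogenase fell and the dominant one did not pass the test. Ldha, whose subunit favours lactate formation and is a classical HIF target, was at 1037, 984 and 982 FPKM in HET, against 960, 961 and 997 in WT. These overlap, at a log2 difference of 0.04 (limma adjusted p = 0.665). The difference was 0.18 after median-ratio scaling (adjusted p = 0.0708), and after quantile normalization Ldha was called higher (0.26, adjusted p = 0.0346). Ldhb, the heart-type subunit, was at 2.47, 2.12 and 2.82 FPKM in HET, against 4.39, 3.32 and 4.59 in WT, 1.66-fold lower without overlap (log2 fold change -0.55, adjusted p = 0.00949). After quantile normalization Ldhb was not called (-0.31, adjusted p = 0.0898). None of the 3 genes at the pyruvate dehydrogenase gate was called as deposited. Pdha1, the catalytic alpha subunit, was at 86.0, 83.1 and 82.0 FPKM in HET, against 89.2, 89.1 and 95.2 in WT, separate but short of the threshold (adjusted p = 0.118). Pdk1, the HIF-induced kinase that shuts the complex, was at 8.39 ± 0.357 FPKM in HET and 8.19 ± 0.411 FPKM in WT (SD, n = 3 each; adjusted p = 0.707). Its relative Pdk2 was at 41.2 ± 1.84 FPKM in HET and 40.7 ± 1.18 FPKM in WT (SD, n = 3 each; adjusted p = 0.833). After median-ratio scaling both Pdk1 (0.15, adjusted p = 0.0457) and Pdk2 (0.15, adjusted p = 0.0473) were called higher, and after quantile normalization Pdk1 was (0.16, adjusted p = 0.0448).

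The bifunctional PFKFB enzymes make and remove fructose 2,6-bisphosphate, the strongest activator of phosphofructokinase. Of the 3 tested, 2 fell, while 35.7% of all tested rows were lower. Pfkfb2, the heart-type enzyme, was at 2.87, 3.44 and 3.95 FPKM in HET, against 4.81, 5.07 and 5.38 in WT. It was 1.49-fold lower (log2 fold change -0.47, SE 0.10, limma adjusted p = 0.00793), and not called after quantile normalization (-0.26, adjusted p = 0.0617). Pfkfb4, a hypoxia-inducible form, was at 22.6, 22.9 and 22.6 FPKM in HET, against 25.2, 25.0 and 28.6 in WT. That 1.15-fold reduction passed narrowly (adjusted p = 0.044) and did not pass when any single library was left out (0.0615 to 0.132) or under the 3 other scalings (0.104 to 0.4). Pfkfb3, the inducible form with the highest kinase activity, was at 5.22, 7.92 and 8.36 FPKM in HET and 7.68, 7.18 and 8.85 FPKM in WT, which overlap (adjusted p = 0.492).

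In the HIF machinery, the shared beta subunit fell and 1 hydroxylase rose. Arnt (HIF-1 beta), the partner of every HIF alpha subunit, was at 7.15, 8.07 and 8.42 FPKM in HET, against 11.6, 10.4 and 10.4 in WT. No HET library reached the lowest WT value, a 1.38-fold reduction (log2 fold change -0.42, SE 0.08, limma adjusted p = 0.0047). Hif1a was at 17.2, 21.2 and 22.1 FPKM in HET, against 22.3, 24.6 and 22.4 in WT. The groups lay close without overlapping, and the log2 difference of -0.20 was not called (95% interval -0.43 to 0.04, adjusted p = 0.142). Epas1, which encodes HIF-2 alpha, the subunit known for iron uptake genes in the duodenum, was at 14.5, 12.5 and 8.27 FPKM in HET, against 9.63, 10.8 and 9.53 in WT. HET libraries fell on both sides of WT (adjusted p = 0.417), and without HET replicate 3 it was called higher (log2 fold change 0.40, adjusted p = 0.0118).

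Egln1 (Phd2), the main oxygen-sensing hydroxylase, was at 13.2, 13.3 and 12.1 FPKM in HET, against 10.3, 11.3 and 10.6 in WT, 1.20-fold higher without overlap (log2 fold change 0.24, SE 0.06, limma adjusted p = 0.0186). The call was lost without HET replicate 2 (0.0655), WT replicate 1 (0.0708) or WT replicate 3 (0.0666). Egln3 (Phd3), itself a strong HIF target, was at 24.7, 24.5 and 22.1 FPKM in HET and 21.5, 19.8 and 22.3 FPKM in WT, overlapping by 1 library. It was not called as deposited (log2 difference 0.16, adjusted p = 0.102), but was called without HET replicate 3 (0.0473) and under a common sum (0.0224), median-ratio scaling (0.00993) and quantile normalization (0.0234). Egln2 (Phd1) was at 29.7 ± 1.97 FPKM in HET and 28.6 ± 0.287 FPKM in WT (SD, n = 3 each; adjusted p = 0.518), and was called higher after median-ratio scaling (adjusted p = 0.0275).

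Among the other HIF targets, 3 of 11 tested rose, 1 fell and 7 were not called, while 10.7% of all tested rows were higher and 35.7% lower. Ndrg1, a hypoxia and differentiation gene of epithelia, was at 33.5, 38.4 and 36.4 FPKM in HET, against 22.3, 21.7 and 21.1 in WT. The genotypes were far apart, 1.66-fold, with the smallest adjusted p of the members (log2 fold change 0.71, SE 0.06, limma adjusted p = 0.000342). Bnip3, a mitophagy receptor, was at 11.2, 12.3 and 10.2 FPKM in HET, against 8.45, 7.996 and 8.23 in WT, 1.36-fold higher (log2 fold change 0.40, adjusted p = 0.00475). Its homologue Bnip3l (Nix) was at 17.8 ± 0.386 FPKM in HET and 18.2 ± 0.649 FPKM in WT (SD, n = 3 each; adjusted p = 0.625), and was not called under any of the 4 scalings. Kdm3a, a histone H3 lysine 9 demethylase, was at 8.23, 8.56 and 8.35 FPKM in HET, against 7.18, 7.36 and 7.45 in WT. Replicates were tight and the shift small, 1.14-fold (adjusted p = 0.0294), and the call was lost in 5 of the 6 analyses that left out 1 library: without HET replicate 2 (0.0949), HET replicate 3 (0.0529) and WT replicates 1, 2 and 3 (0.0985, 0.0841 and 0.0708).

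P4ha1, a collagen prolyl hydroxylase, was at 1.40, 1.05 and 1.22 FPKM in HET, against 2.15, 2.34 and 2.33 in WT, 1.86-fold lower (log2 fold change -0.56, SE 0.08, limma adjusted p = 0.00151). Its relative P4ha2 was below the filter and was not tested, at 0.344, 0.362 and 0.370 FPKM in HET, against 0.4998, 0.616 and 0.934 in WT. The fibroblast markers, of which 12 of 12 tested fell (35.7% of all tested rows) and none was at 0 in all libraries, summed to 68.4 to 95.05 FPKM in HET and 244 to 270 FPKM in WT. Their part in the P4ha1 result was not tested.

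The angiogenic factor Vegfa was at 11.1, 13.2 and 14.0 FPKM in HET, against 13.7, 14.2 and 14.4 in WT (limma adjusted p = 0.213). Car9, a cell-surface carbonic anhydrase, was at 44.0, 31.3 and 30.5 FPKM in HET, against 31.1, 34.0 and 29.4 in WT. HET replicate 1 stood alone, and without it the log2 difference was -0.02 in place of 0.14 (adjusted p = 0.439 with all libraries). Ankrd37, an ankyrin-repeat protein gene induced by HIF, was likewise highest in HET replicate 1, at 7.63, 4.33 and 3.26 FPKM in HET, against 3.53, 2.96 and 3.41 in WT (adjusted p = 0.17). It was called higher without HET replicate 3 (0.0334). HET replicate 1 also held the highest summed level of the erythroid markers, 485 FPKM, against 123 and 127 FPKM in the other HET libraries and 54.3 to 59.6 FPKM in WT. Of these markers 3 of 4 tested rose (10.7% of all tested rows) and none was at 0 in all libraries. Their part in these values was not tested.

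Higd1a, a respiratory chain factor, was at 18.8 ± 2.81 FPKM in HET and 17.3 ± 1.56 FPKM in WT (limma adjusted p = 0.487). Hilpda, a lipid droplet protein gene, was at 2.02 ± 0.143 FPKM in HET and 1.71 ± 0.464 FPKM in WT (adjusted p = 0.295), and was called higher after quantile normalization (0.48, adjusted p = 0.0324). Mxi1, a Myc antagonist, was at 30.6 ± 3.32 FPKM in HET and 29.5 ± 0.355 FPKM in WT (adjusted p = 0.687; SD, n = 3 each). The vasodilator peptide gene Adm was below the filter, at 0.251, 0.956 and 0.873 FPKM in HET, against 0.775, 1.06 and 0.964 in WT.

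**Figure D3:**
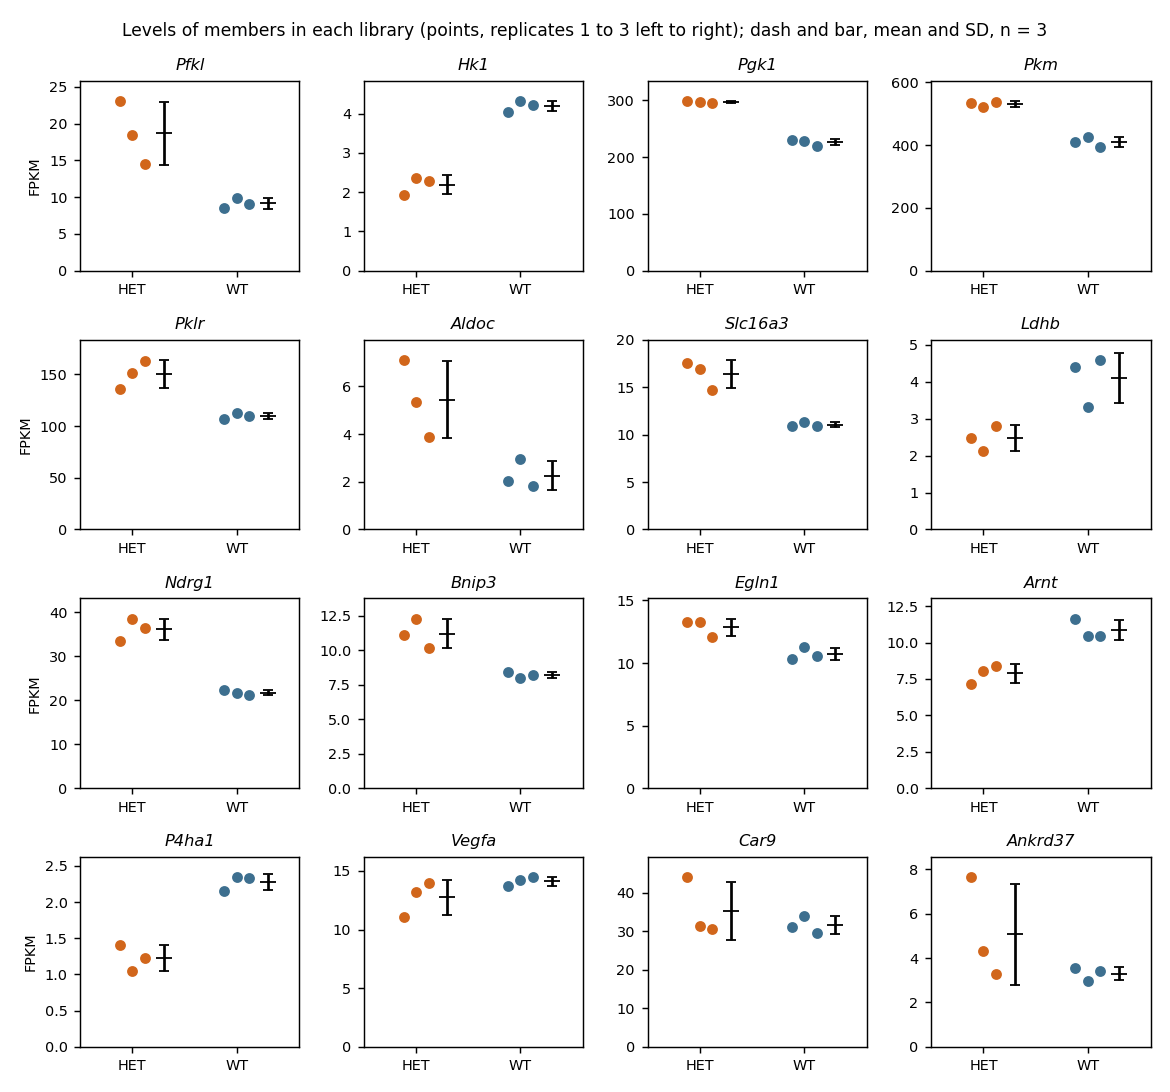
FPKM of selected members in each library (points, replicates 1 to 3 from left to right), HET left of WT, on linear axes from 0 with the mean and SD of each genotype beside them (n = 3). Every HET point lies above every WT point for Ndrg1, Slc16a3, Pfkl and Pgk1 and below for Hk1, Ldhb, Arnt and P4ha1, while Car9 and Ankrd37 overlap with HET replicate 1 at the top.

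The glycolytic enzymes and the other HIF targets are set side by side here. Of 17 enzymes tested, 6 were higher and 2 lower (35.3% and 11.8%), with a median log2 fold change of 0.12. Of 11 other targets tested, 3 were higher and 1 lower (27.3% and 9.09%), with a median of 0.14. Over all tested rows 10.7% were higher and 35.7% lower. The difference between the classes was not tested. Summed levels were 3588 to 3789 FPKM in HET and 3216 to 3292 FPKM in WT for the enzymes, and 174 to 185 FPKM in HET and 153 to 160 FPKM in WT for the other targets. Of the 6 regulators of flux, 0 were higher and 2 lower (33.3%), a share near that of all tested rows, and their median of -0.13 was near the background median of -0.12. Under the common sum, median-ratio scaling and quantile normalization, 1, 1 and 0 of the 6 were lower and 0, 2 and 1 higher.

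The scaling of the libraries set where the background lay. Over all tested rows the median log2 change was -0.12 as deposited, -0.07 with a common sum of FPKM, 0.00 after median-ratio scaling and 0.04 after quantile normalization. Rows called higher made up 14.6%, 23.0% and 24.7% of all tested rows under those 3 scalings, and rows called lower 29.6%, 25.1% and 18.1%. Over the same scalings the members had 12, 19 and 16 calls higher and 5, 5 and 3 lower. The enzymes had 6, 9 and 7 higher and 2, 2 and 1 lower, and the other targets 3, 3 and 4 higher and 1 lower each time. Of the 17 calls, 14 were kept under all 3. Pfkl stayed at a log2 fold change of 0.98 to 1.06 and Ndrg1 at 0.76 to 0.84, whereas Hk1 came closer to 0, at -0.66, -0.60 and -0.46.

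**Figure D4:**
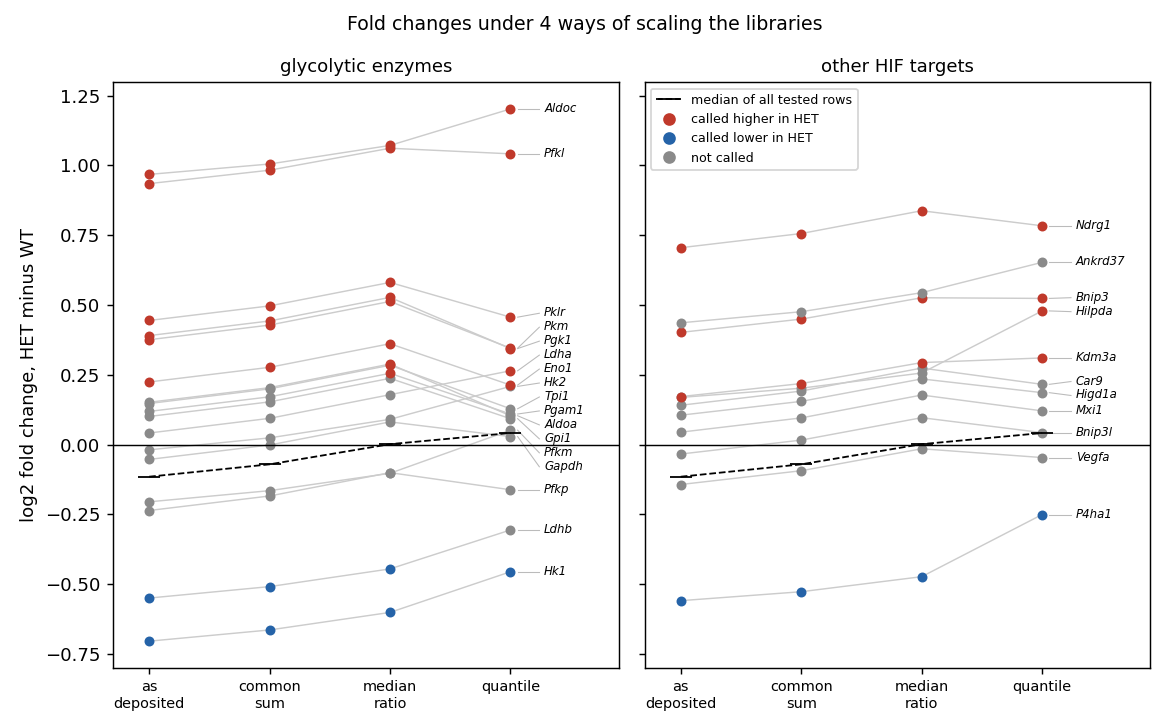
Log2 fold change, HET over WT, of each tested glycolytic enzyme (left panel) and other HIF target (right panel) as deposited and under 3 other scalings of the libraries, with calls in colour and the median of all tested rows dashed. The dashed line moves from -0.12 to 0.04, Pfkl, Aldoc and Ndrg1 stay above 0.7, and Hk1, Ldhb and P4ha1 stay below 0.

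The wider pathways around the members were read from lists of other genes. In the rest of glycolysis, 4 of 12 tested genes rose and 1 fell. Under the common sum, median-ratio scaling and quantile normalization, 5, 5 and 6 rose and 1, 1 and 0 fell. As deposited, 10.7% of all tested rows were higher and 35.7% lower. Under those scalings 14.6%, 23.0% and 24.7% were higher and 29.6%, 25.1% and 18.1% lower. Tigar, a fructose bisphosphatase, and Pgp, a phosphatase that clears side products of glycolysis, rose 1.30-fold and 1.26-fold. Hk3, a hexokinase of blood cells, fell 2.30-fold at a low level (0.591 FPKM in HET, 1.36 FPKM in WT) but was not called after quantile normalization. Hk3 passed the filter through its WT libraries alone, so it could be called lower but not higher. Gckr and Pgk2 were listed at 0 in every library. Among the sugar and monocarboxylate carriers, 3 of 9 rose and 1 fell, and under those scalings 3, 4 and 3 rose and 1 fell each time. Slc2a5 (Glut5), the fructose carrier of the brush border, was at 121 ± 13.7 FPKM in HET and 71.2 ± 6.07 FPKM in WT (SD, n = 3 each; adjusted p = 0.00139), Slc2a2 (Glut2) rose 1.34-fold and the urate carrier gene Slc2a9 1.37-fold, while Slc2a4 (Glut4) fell 2.22-fold.

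Among gluconeogenic enzymes, 5 of 8 tested rose and 2 fell, as deposited and under each of the 3 other scalings. As deposited, 10.7% of all tested rows were higher and 35.7% lower. G6pc, glucose 6-phosphatase, was at 36.9, 41.5 and 29.9 FPKM in HET, against 7.96, 9.54 and 7.86 in WT, 4.27-fold higher (limma adjusted p = 0.000124). Pck1, which makes phosphoenolpyruvate, was 6.34-fold and Fbp1, which opposes phosphofructokinase, 2.93-fold higher. In the pentose phosphate pathway, 5 of 9 rose and 2 fell, and under those scalings 5, 6 and 5 rose and 2, 1 and 1 fell. Its entry enzyme G6pdx was at 41.1, 40.7 and 40.1 FPKM in HET, against 24.8, 26.4 and 26.9 in WT (adjusted p = 0.000281). Of the pyruvate dehydrogenase complex and its kinases outside the 45, 2 of 8 rose and 0 fell. Under those scalings 3 rose and 0 fell each time, while 14.6%, 23.0% and 24.7% of all tested rows were higher. Pdk4, the fasting-induced kinase, was at 8.42, 14.5 and 9.09 FPKM in HET, against 1.07, 1.40 and 0.958 in WT (adjusted p = 0.000212).

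Of the other known HIF targets outside the 45, 7 of 33 tested rose and 16 fell, their median log2 fold change being -0.26. Of all tested rows, 10.7% were higher and 35.7% lower, with a median of -0.12. Under the 3 other scalings 7, 10 and 9 of these targets rose and 15, 13 and 8 fell. The shares of all tested rows were then 14.6%, 23.0% and 24.7% higher and 29.6%, 25.1% and 18.1% lower. Angptl4, a lipoprotein lipase inhibitor that fasting also induces, was at 13.3, 13.1 and 14.3 FPKM in HET, against 1.15, 1.19 and 1.25 in WT (limma adjusted p = 1.4e-06), and the metallothionein Mt1 was 4.32-fold higher. Wsb1, an adaptor of a ubiquitin ligase, fell 1.76-fold, and Loxl2, a collagen cross-linking enzyme, fell 4.40-fold. The mean of Loxl2 in HET was under 1 FPKM. Loxl2 thus passed the filter through its WT libraries and could hardly have been called higher. How many more of the 16 lower targets passed in that way was not counted. Of 16 further genes of the HIF machinery tested, 2 rose and 3 fell, against 3, 5 and 5 higher and 2 lower each time under those scalings. Cited2, which competes with HIF for its coactivator p300, was at 18.5, 16.6 and 13.9 FPKM in HET, against 32.5, 30.7 and 34.6 in WT (adjusted p = 0.00058). None of the 3 tested iron genes known to respond to HIF-2 in enterocytes was called. Among 15 regulators of glycolysis outside HIF, 3 rose and 7 fell as deposited, while 3, 4 and 4 were higher and 5, 3 and 1 lower under those scalings. Over all tested rows 35.7% were lower as deposited. Myc, a transcription factor that also drives glycolytic genes, was at 22.1, 21.6 and 18.7 FPKM in HET, against 9.36, 10.02 and 9.38 in WT (adjusted p = 0.000178). Mlxipl (ChREBP), the glucose-sensing factor of Pklr, fell 1.52-fold, at 15.6 ± 2.26 FPKM in HET and 23.7 ± 1.20 FPKM in WT (SD, n = 3 each).

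HET libraries varied more among themselves than WT libraries did. The SD of log2(FPKM + 1) was larger in HET for 33 of 43 tested members (76.7%), against 69.9% of all tested rows, and its median over members was 0.124 in HET and 0.057 in WT. The coefficient of variation among HET libraries was 44.9% for Ankrd37, 29.7% for Aldoc, 27.2% for Epas1 and 22.8% for Pfkl. HET replicate 3 held the lowest HET value of 25 of the 43 (58.1%, against 45.9% of all tested rows) and HET replicate 1 the highest of 20 (46.5%, against 43.5% of all tested rows). Beside these spreads, Paneth cell markers summed to 159, 346 and 1121 FPKM in HET replicates 1 to 3 and to 5207 to 15609 FPKM in WT (8 of 8 fell, none at 0 in all libraries), and immune markers to 899, 754 and 537 FPKM in the same HET libraries and 1771 to 1806 FPKM in WT. Endothelial markers summed to 40.7 to 61.6 FPKM in HET and 92.2 to 93.7 FPKM in WT, smooth muscle markers to 411 to 472 FPKM in HET and 651 to 704 FPKM in WT, and enteric neuron and glia markers to 10.6 to 11.04 FPKM in HET and 15.1 to 17.2 FPKM in WT. Of the 4 neuron and glia markers tested, 3 fell as deposited, but 1 was lower after median-ratio scaling and 0 after quantile normalization. Of the 16 endothelial markers, 15 fell as deposited and 8 were lower after quantile normalization, against 35.7% and 18.1% of all tested rows. Of 18 enterocyte markers, 6 rose and 0 fell, and of 8 proliferation markers, 3 rose and 0 fell, while 10.7% of all tested rows were higher. After quantile normalization 5 enterocyte and 5 proliferation markers were higher, against 24.7% of all tested rows. The part of these cell types in the values of the 45 genes was not tested.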

How the data were processed

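Polyadenylated RNA from mouse intestine was captured on oligo(dT) beads and made into libraries with a SMARTER mRNA kit, per the labels' protocols. The authors deposited FPKM values, and their processing notes name the build GRCm39. Aligner, counting tool, annotation and strandedness are not given in the sources used for this report. Overlapping antisense genes therefore cannot be told apart.

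FPKM are relative to each library's total, so a few abundant genes shift the others. Rows that reached 1 FPKM in 3 or more of 6 libraries entered limma 3.58.1 (R 4.3.3; eBayes with trend, genotype as the sole term) as log2(FPKM + 1). P-values were Benjamini-Hochberg adjusted over 11870 rows. Rnf111 was also compared by an exact two-sided permutation test over 20 arrangements (p = 0.1, the smallest they allow). Of 22036 Ensembl identifiers, 22022 were found in GENCODE M21, which served for names and near-identical copies (minimap2 2.31), and 11 symbols turned into dates were restored. No libraries held identical values (0 pairs). Promoter windows came from RefSeq on GRCm38.p6, not the build of the values. Epas1, Bnip3l and Ndrg1 were not matched. Tables and figures used Python 3.11.15, pandas 2.3.3, numpy 2.4.6, SciPy 1.17.1 and matplotlib 3.10.9.

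The members and lists were chosen with earlier results of these data known. All 45 members are named, plus Rnf111 and, of each other list, up to 4 called genes with the largest moderated statistic. Genes listed at 0, those named in a comparison of isozymes (Hkdc1) and list counts fall outside that rule. One gene that the rule names is not reported here. Alternatives covered the pseudocount, the filter on low values, 3 scalings, a replicate block, other variance settings and leaving out each library.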

Additional observations from a re-analysis of the deposited data

How the results depend on the processing

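Over all tested rows, 1269 were higher and 4235 lower. Median-ratio scaling gave 2731 higher, quantile normalization gave 2929 higher and 2153 lower, and a mean FPKM of at least 5 left 1853 lower among fewer rows tested. Leaving out 1 library gave 754 to 1610 higher and 3150 to 4409 lower. Members called higher numbered 19 with median-ratio scaling (main 11) and 8 to 13 without 1 library. Members called lower numbered 1 with the mean filter, 3 with quantile normalization and 5 to 6 without 1 library (main 6). Glycolytic enzymes called lower numbered 0 with the mean filter, 1 with quantile normalization and 4 with array weights (main 2), and the other HIF targets 0 lower with the mean filter, which removes low genes. For the scalings and array weights, the cause was not tested. Pseudocounts of 0.1 and 0.01, and eBayes without trend or robust, changed no member's call.

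Rnf111 turned to 0.021 after quantile normalization and was -0.22 to -0.14 without 1 library. The members that reversed were not called in the main analysis. With a common sum Slc16a1 was 0.012, Hk2 0.024 and Bnip3l 0.016. With median-ratio scaling Slc16a1 was 0.093, Hk2 0.090, Gapdh 0.081, Pdha1 0.014 and Bnip3l 0.096. With quantile normalization Slc16a1 was 0.039, Hk2 0.21, Pfkm 0.051, Pfkfb3 0.0050, Gapdh 0.028 and Bnip3l 0.043. Without 1 library, Hk2 ranged from -0.13 to 0.042, Gapdh from -0.22 to 0.064, Pfkfb3 from -0.25 to 0.042, Pdk1 from -0.0040 to 0.060, Pdk2 from -0.014 to 0.049, Car9 from -0.024 to 0.23 and Mxi1 from -0.017 to 0.13. The cause was not tested.

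Whether replicate numbers pair the libraries is not stated in the labels, and 3 libraries per genotype are too few to settle it. Deviations of same-numbered libraries correlated at -0.03, 0.13 and 0.32, and 2 HET and 1 WT libraries correlated best with their own number. With the replicate block, 1167 rows were higher and 3915 lower, and of the members 9 were higher and 6 lower, with Eno1, Kdm3a and Pfkfb4 not called and Pfkp called. FPKM hold no counts, so counting error at low levels (Adm, P4ha2, the low Aldoa row) is unknown.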
